A study of Mus musculus with 38 samples.

Results

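Itga2b, Pf4, Ppbp and Treml1 are genes of megakaryocytes, the large cells that shed platelets, and of the platelets themselves. They were chosen by name, with earlier results of these data known, so shares and ranks over all probes set beside them are descriptions. Every probe assigned to one of them in the array's probe-to-gene table was taken. Each had 1 probe, so the set is 4 probes out of 13443 and 4 genes out of 9616 on the array. All 4 probes were measured in 3 or more mice of every condition, the minimum set for testing, and none was left out. Gene expression was measured with 2-colour arrays in spleen cells of DBA/2 mice. The 4 conditions were untreated mice and mice taken 1, 2 or 5 days after 83 mg/kg of cyclophosphamide, an alkylating drug most toxic to dividing cells. There were 5 untreated mice, 4 mice on day 1, 5 on day 2 and 5 on day 5, each harvested separately. Each mouse was measured in 2 technical replicates, called arrays here. Whether these were separate slides or spots of 1 slide is not stated in the sources used here. Every array compared Cy5-labelled spleen RNA with a common Cy3-labelled pool of DBA/2 bone marrow cells. The labels describe this pool as untreated, although its treatment field names cyclophosphamide. The labels name no mutation and no second agent. The sources used here do not give the age of the mice, a vehicle injection of the untreated mice or a slide batch.

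Megakaryocytes arise from the same progenitors as red cells, in the marrow and, in the mouse, also in the red pulp of the spleen. They build alpha granules filled with chemokines and clotting proteins, place integrins and other receptors on their surface, and release platelets, a large share of which is stored in the spleen. Cytotoxic drugs deplete dividing progenitors, and platelet numbers recover later from the surviving ones. The question here was whether the 4 genes returned to the untreated level by day 5 or lay above it.

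All values are log2 ratios of spleen over the marrow pool, so 0 means equal signal in both, and a change is the difference of 2 such ratios on the log2 scale. The arrays held 5829 to 10407 values each, and the correlation between the 2 arrays of a mouse ran from 0.581 to 0.962. It was below 0.7 in 3 mice, numbers 2 and 4 of the untreated group and number 5 of day 5. The 2 arrays of a mouse were averaged, and group means were compared with limma over 8319 probes, with Benjamini-Hochberg adjusted p values and a threshold of 0.05. In untreated spleens 0 of 8 neutrophil and granule genes lay above 0 (median -1.54) and 4 of 5 T cell genes did (median 0.35), so the values were read as spleen over marrow. Of the 4 conditions, day 2 had the widest spread of ratios over probes.

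On day 5 all 4 genes had a higher mean ratio than in untreated spleens, by 1.11 for Itga2b, 1.19 for Pf4, 1.15 for Ppbp and 0.61 for Treml1 on the log2 scale. Only the rise of Itga2b, 2.15-fold, passed the test over all probes (limma, adjusted p = 0.0396). That was 1 of 4 genes, where 0.0481% of all probes tested passed as higher. Pf4, Ppbp and Treml1 had unadjusted p values of 0.0105, 0.000488 and 0.00573 (limma) and adjusted p values of 0.923, 0.348 and 0.871, so their day 5 differences are given as values without a call. The group means of every one of the 4 genes were ordered untreated, day 1, day 2, day 5 from low to high, an order seen in 3.05% of the 8319 probes, and day 5 was the highest of the 4 means in 22.5% of them. This order is not stable for 3 of the genes: with quantile normalization the day 2 mean minus the day 1 mean was -0.0237 for Pf4, -0.059 for Ppbp and -0.00228 for Treml1, and without day 1 mouse 2 it was -0.124 for Ppbp. In whole spleen cells, more cells of a type and more RNA per cell cannot be told apart.

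**Figure D1:**
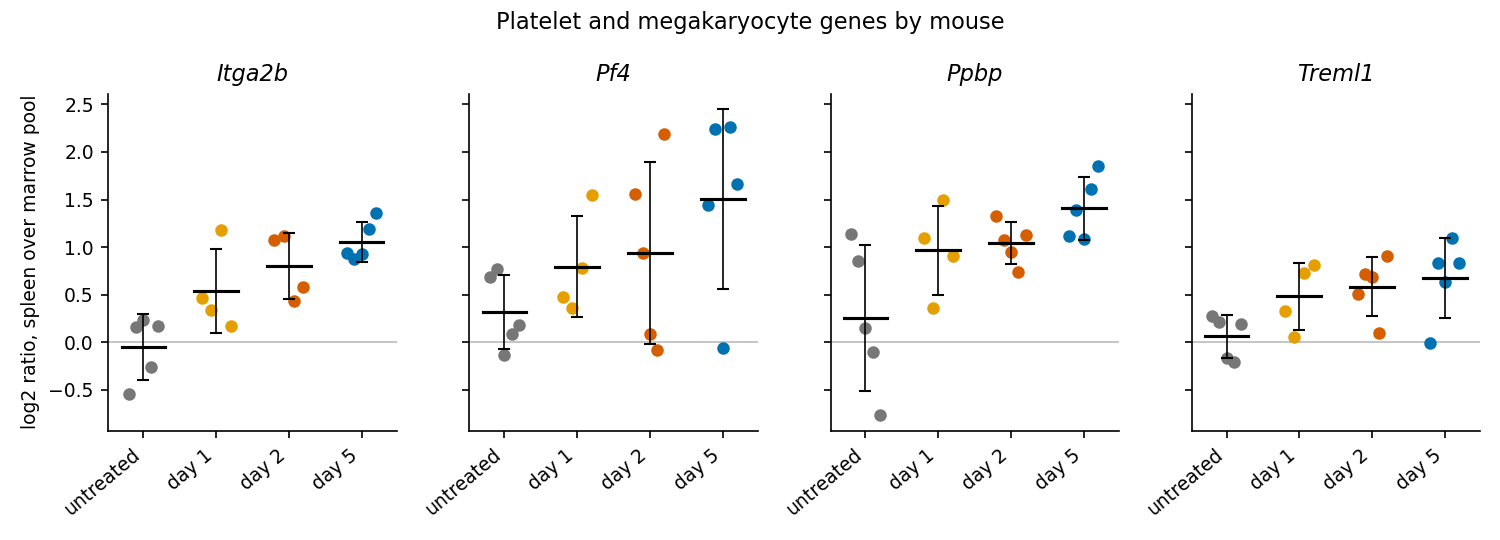
Log2 ratio of spleen over marrow pool (vertical axis) in each mouse (points) for Itga2b, Pf4, Ppbp and Treml1, in untreated mice and on days 1, 2 and 5 after cyclophosphamide; bars show the mean and SD of each group. The means climb from left to right in every panel, and only for Itga2b do the day 2 and day 5 mice all lie above the highest untreated mouse (0.24).

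Itga2b (mouse gene ID 16399, chromosome 11) encodes integrin alpha IIb, one chain of the platelet receptor for fibrinogen, and is switched on early in megakaryocyte commitment. Its log2 ratio was -0.55, 0.16, 0.24, -0.26 and 0.17 in the 5 untreated mice and 0.47, 0.34, 1.18 and 0.18 in the 4 mice of day 1. On day 2 it was 1.07, 1.12, 0.44 and 0.58 in the 4 mice with a value, mouse 3 having none, and on day 5 it was 0.94, 0.87, 0.93, 1.19 and 1.36. The untreated mice lay on both sides of the marrow level, the day 1 mice overlapped them by 1 animal, and the day 2 and day 5 mice all lay above every untreated mouse. The day 5 values were also the tightest, with a mean of 1.06 ± 0.21 (SD, n = 5), against -0.05 ± 0.34 (SD, n = 5) in untreated mice.

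The change of Itga2b was 0.59 ± 0.21 (SE) on day 1, which did not pass (limma, adjusted p = 0.175). On day 2 it was 0.85 ± 0.21, a 1.80-fold rise that passed (adjusted p = 0.0157), and on day 5 it was 1.11 ± 0.20, with a 95% interval of 1.61-fold to 2.87-fold. Itga2b was the only one of the 4 genes to pass on day 2, when 3.31% of all probes passed as higher. It was also the only one whose treated and untreated mice did not overlap, on day 2 (3.86% of all probes did not overlap in that direction) and on day 5 (0.673%). Over the 4 conditions together its moderated F-test gave an adjusted p = 0.00731, against 6.00% of all probes passing, while Pf4, Ppbp and Treml1 had 0.356, 0.0633 and 0.211. No step between neighbouring times passed: day 2 differed from day 1 by 0.26 (adjusted p = 0.928) and day 5 from day 2 by 0.25 (adjusted p = 0.585).

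The 2 arrays of a mouse gave Itga2b values that differed by a median of 0.04, and by 0.92 at most, in day 2 mouse 5 (1.05 and 0.12). The day 5 call of Itga2b stood close to the threshold. Leaving out 1 mouse at a time kept the change between 0.98 and 1.18, with adjusted p values of 0.0241 to 0.165. The call was lost without any one of 15 of the 19 mice, and was kept only without untreated mouse 3, day 1 mouse 3, day 2 mouse 3 or day 2 mouse 4. Without the 3 mice of low technical correlation the change was 1.03 (adjusted p = 0.421). Without day 2 mouse 2 the day 2 call was lost as well (adjusted p = 0.0546).

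Pf4 (mouse gene ID 56744) and Ppbp (57349) lie next to each other on chromosome 5. They encode platelet factor 4 and pro-platelet basic protein, CXC chemokines packed into alpha granules and released when platelets are activated. The log2 ratio of Pf4 was 0.68, 0.77, -0.13, 0.09 and 0.19 in untreated mice and 0.48, 0.36, 0.79 and 1.54 on day 1. It was 1.56, 0.93, 0.09, -0.08 and 2.18 on day 2 and 1.44, 2.24, -0.06, 2.26 and 1.66 on day 5. In 4 of 5 day 5 mice Pf4 lay above every untreated mouse, while day 5 mouse 3 lay at the marrow level within the untreated range. Day 2 was split in the same way, with 3 mice above and 2 mice within the untreated range.

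Pf4 averaged 1.51 ± 0.95 (SD, n = 5) on day 5 and 0.32 ± 0.39 (SD, n = 5) in untreated mice. The differences against untreated were 0.47 ± 0.45 (SE) on day 1 (limma, adjusted p = 0.742), 0.62 ± 0.42 on day 2 (adjusted p = 0.433) and 1.19 ± 0.42 on day 5. The 95% interval on day 5 ran from 1.24-fold to 4.18-fold. Without day 5 mouse 3 the difference was 1.58, the highest of the values with 1 mouse left out, and it did not pass in any of them.

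Ppbp had log2 ratios of 1.14, 0.85, 0.15, -0.10 and -0.77 in untreated mice and 1.10, 0.37, 1.49 and 0.91 on day 1. It had 1.33, 1.07, 0.95, 0.74 and 1.12 on day 2 and 1.11, 1.39, 1.08, 1.61 and 1.85 on day 5. The untreated mice were spread more widely than any treated group, and untreated mouse 1 lay within the day 5 range while the other untreated mice lay below it. Ppbp averaged 1.41 ± 0.33 (SD, n = 5) on day 5 and 0.26 ± 0.76 (SD, n = 5) in untreated mice.

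The differences of Ppbp against untreated were 0.71 ± 0.30 (SE) on day 1 (limma, adjusted p = 0.271), 0.79 ± 0.28 on day 2 (adjusted p = 0.0919) and 1.15 ± 0.28 on day 5, a 2.22-fold ratio. Without untreated mouse 1 the day 2 difference was 1.01 and passed (adjusted p = 0.0262), and the number of the 4 genes that passed on day 2 became 2. On day 5 Ppbp did not pass with any 1 mouse left out, and its difference stayed between 0.90 and 1.37.

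Treml1 (mouse gene ID 71326, chromosome 17) encodes a receptor of the TREM family that is kept in alpha granules and reaches the platelet surface on activation. Its log2 ratio was 0.27, 0.22, -0.17, -0.20 and 0.20 in untreated mice and 0.33, 0.06, 0.73 and 0.82 on day 1. It was 0.51, 0.72, 0.69, 0.10 and 0.91 on day 2 and -0.01, 0.83, 0.63, 1.10 and 0.83 on day 5. In each treated group 1 mouse lay within the untreated range (day 1 mouse 2, day 2 mouse 4 and day 5 mouse 1), and the others lay above it.

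Treml1 averaged 0.68 ± 0.42 (SD, n = 5) on day 5 and 0.06 ± 0.23 (SD, n = 5) in untreated mice. The differences against untreated were 0.42 ± 0.21 (SE) on day 1 (limma, adjusted p = 0.406), 0.52 ± 0.20 on day 2 (adjusted p = 0.123) and 0.61 ± 0.20 on day 5, a 1.53-fold ratio with a 95% interval of 1.15-fold to 2.04-fold. The day 5 value of mouse 3 and the Itga2b value of untreated mouse 5 each came from 1 array, the other array having no value.

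**Figure D2:**
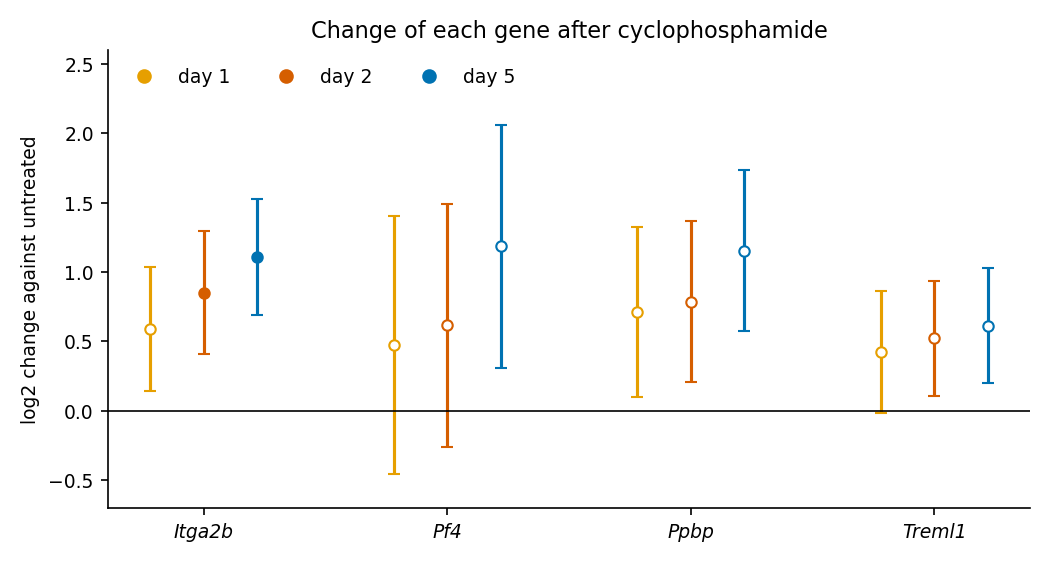
Log2 change against untreated mice (vertical axis) of each gene on days 1, 2 and 5, with 95% intervals from limma; filled points passed the adjusted threshold of 0.05 and open points did not. Itga2b on day 2 (0.85) and day 5 (1.11) are the filled points, and the day 5 interval of all 4 genes lies above 0.

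Of the 4 genes, 0 passed on day 1, when 0.938% of all probes passed as higher. On that day 2 had an unadjusted p below 0.05 in limma, as did 1099 of the 8319 probes, 611 of them higher. Between day 2 and day 1, 0 of 4 passed (differences of 0.08 to 0.26), and 0% of all probes passed as higher. None of the 4 had an unadjusted p below 0.05, against 501 of the 8319 probes, 168 of them higher. On day 2, 3 had an unadjusted p below 0.05 (1739 of the 8319 probes, 828 of them higher). On day 5 all 4 did (434 of the 8319 probes, 260 of them higher). The day 5 share of all probes is close to the share that a threshold of 0.05 gives with no change. The median change of the 4 genes was 0.53 on day 1, 0.70 on day 2 and 1.13 on day 5, and the medians over all probes were 0.02, 0.01 and 0.01. Set against the marrow pool, the mean ratio of Itga2b was 0.967-fold in untreated spleens, 1.45-fold on day 1, 1.74-fold on day 2 and 2.08-fold on day 5. For Pf4 it was 1.25-fold, 1.73-fold, 1.92-fold and 2.84-fold over the same 4 conditions, for Ppbp 1.19-fold, 1.95-fold, 2.06-fold and 2.65-fold, and for Treml1 1.04-fold, 1.40-fold, 1.50-fold and 1.60-fold. In untreated spleens the 4 means thus lay near the level of the marrow pool. Without a dye swap, a dye effect on these ratios cannot be told apart from a difference between spleen and marrow. By size of change on day 5, Pf4 ranked 13, Ppbp 17, Itga2b 19 and Treml1 103 from the top of 8319 probes. None of the 4 passed between day 5 and day 2, where the differences ran from 0.09 to 0.57 (limma, adjusted p = 0.525 to 0.866) and 3.80% of all probes passed as higher. There 0 of the 4 had an unadjusted p below 0.05, against 1526 of the 8319 probes, 899 of them higher. None passed between day 5 and day 1 (differences of 0.19 to 0.71, limma, adjusted p = 0.438 to 0.958), where 0.613% of all probes passed as higher and 0.301% as lower. There 1 of the 4 had an unadjusted p below 0.05, as did 718 of the 8319 probes, 372 of them higher. By these tests Itga2b lay above untreated on day 5, and no gene was shown to differ between day 5 and day 2. The day 5 call of Itga2b was kept in only 8 of 29 alternative fits.

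Whether the 4 genes changed by unequal amounts was tested on the difference of 2 genes within each mouse, over 6 pairs and 3 days, with a two-sided exact permutation test over mice. The smallest p was 0.0794, for Itga2b minus Treml1 on day 5, where the difference in log2 change was 0.49. After adjustment over the 18 tests every p was 0.968. The smallest p such a test can give is 0.00794. A single pair at that p would not pass after adjustment over 18 tests, so a lone difference between 2 genes could not have been called. Pf4 and Ppbp differed in their day 5 change by 0.03, Itga2b and Pf4 by -0.08 and Itga2b and Ppbp by -0.05, each first gene minus the second.

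Within the groups, mice with a high rank for 1 of Pf4, Ppbp and Treml1 tended to rank high for the others. With each group's mean removed, Pf4 and Treml1 correlated with r = 0.55 over 19 mice (permutation p = 0.0447, adjusted p = 0.0893 over 6 relations). Spearman's rho was 0.751 (permutation p = 9.0e-04, adjusted p = 0.0054). Pf4 and Ppbp had r = 0.43 (permutation p = 0.0164, adjusted p = 0.0893) and rho = 0.582 (adjusted permutation p = 0.0222), and Ppbp and Treml1 r = 0.46 (permutation p = 0.0357, adjusted p = 0.0893) and rho = 0.600 (adjusted permutation p = 0.0222). Leaving out the 2 mice farthest from the median of the first gene gave r = 0.61, 0.45 and 0.64 for these 3 pairs. Itga2b had r = 0.04, 0.17 and 0.23 with Pf4, Ppbp and Treml1 over 18 mice (adjusted permutation p = 0.886, 0.682 and 0.592). The rank correlations of the 3 pairs passed the adjustment and the linear ones did not. Both genes of a pair were read on the same arrays against the same marrow pool.

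**Figure D3:**
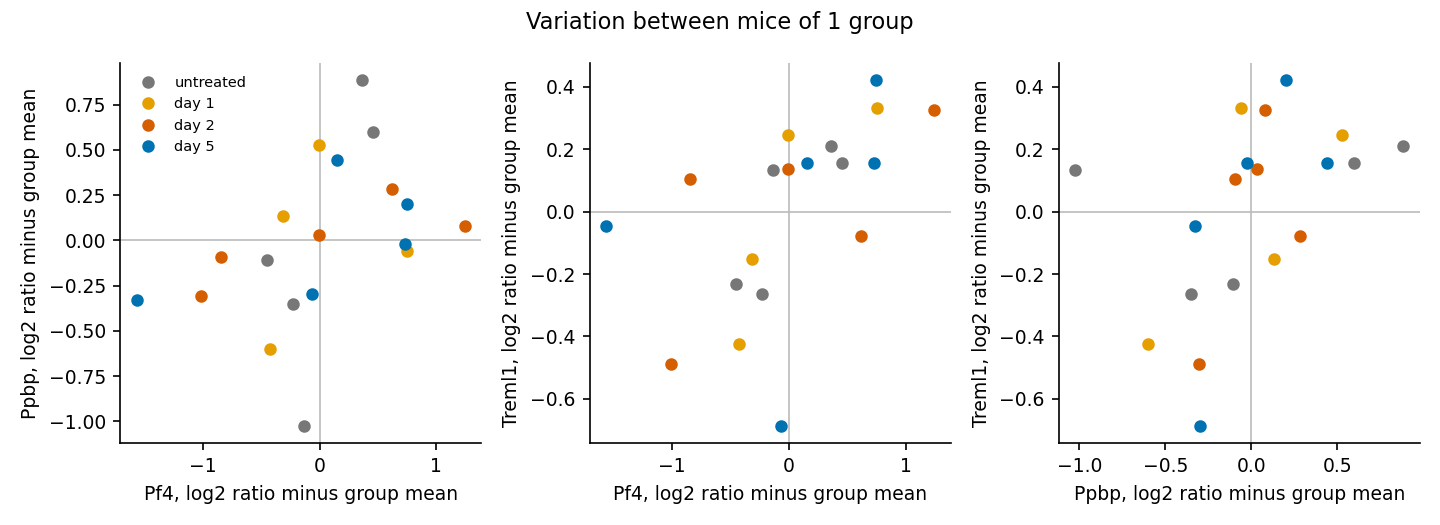
Log2 ratio minus the group mean in each mouse (points, coloured by condition), for Pf4 and Ppbp, Pf4 and Treml1, and Ppbp and Treml1. The points run from lower left to upper right in each panel, most closely in rank for Pf4 and Treml1 (rho 0.751).

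The DNA just upstream of the start of transcription is shown for Itga2b, the gene that passed, and for the neighbouring chemokine genes Pf4 and Ppbp. Each is the 250 bases before the RefSeq start in build GRCm38.p6, printed 5′ to 3′ on the gene's strand: Itga2b on the minus strand at chr11:102469884-102470133, Pf4 on the plus strand at chr5:90772185-90772434 and Ppbp on the plus strand at chr5:90768268-90768517. Capitals mark the letters AGGAAG or their reverse complement CTTCCT, a core that ETS family factors such as Fli1 can bind.
Itga2b: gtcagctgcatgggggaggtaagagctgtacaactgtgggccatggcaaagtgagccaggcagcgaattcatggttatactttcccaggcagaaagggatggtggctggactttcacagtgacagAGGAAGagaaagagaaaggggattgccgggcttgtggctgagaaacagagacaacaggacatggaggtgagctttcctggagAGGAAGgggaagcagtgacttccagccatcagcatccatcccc
Pf4: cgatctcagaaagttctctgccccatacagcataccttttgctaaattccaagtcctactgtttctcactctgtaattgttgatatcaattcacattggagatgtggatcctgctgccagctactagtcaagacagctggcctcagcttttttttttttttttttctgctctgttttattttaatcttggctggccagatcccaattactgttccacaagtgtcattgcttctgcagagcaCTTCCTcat
Ppbp: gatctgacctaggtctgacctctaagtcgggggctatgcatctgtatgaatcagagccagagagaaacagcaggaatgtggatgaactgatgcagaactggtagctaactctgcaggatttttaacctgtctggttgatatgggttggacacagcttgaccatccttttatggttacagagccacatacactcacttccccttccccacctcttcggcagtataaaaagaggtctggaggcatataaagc
These letters stood at positions -125 and -43 of Itga2b and at -9 of Pf4, counted from the base before the start as -1 to the first base of the match. They were not found in the window of Ppbp or in that of Treml1 (plus strand, chr17:48359666-48359915). Of 32851 mouse promoters of the same length, 29.48% held them on either strand. The letters GATAA or TTATC, a core bound by GATA factors, were in none of the 4 windows and in 22.58% of all promoters. A match describes the letters alone.

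Of 165 genes in 5 lists of megakaryocyte and platelet genes, 118 were on the array and 75 were tested, the 4 genes included. Among the 71 others, 1 passed as higher on day 5 and 0 as lower (0.0481% and 0.0240% of all probes), with a median change of 0.11. On day 2, 8 passed as higher and 3 as lower (3.31% and 5.00% of all probes), with a median of 0.18, and on day 1, 2 passed as higher and 0 as lower, with a median of 0.17. These counts moved with the processing. The day 5 count of 1 was kept in 14 of 30 alternatives and was 0 in the others, the day 2 count of 11 ran from 3 (quantile normalization) to 13, and the day 1 count of 2 ran from 0 to 4. Between day 5 and day 2, 3 passed as higher and 0 as lower (3.80% and 1.50% of all probes), with a median of -0.08. Genes of these lists are not exclusive to platelets and megakaryocytes, and which spleen cells gave these changes was not tested. The day 5 median of the 71 others was far below that of the 4 genes, a comparison given without a test. The 4 genes were chosen with earlier results of these data known, and that choice alone can give such a gap.

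**Figure D4:**
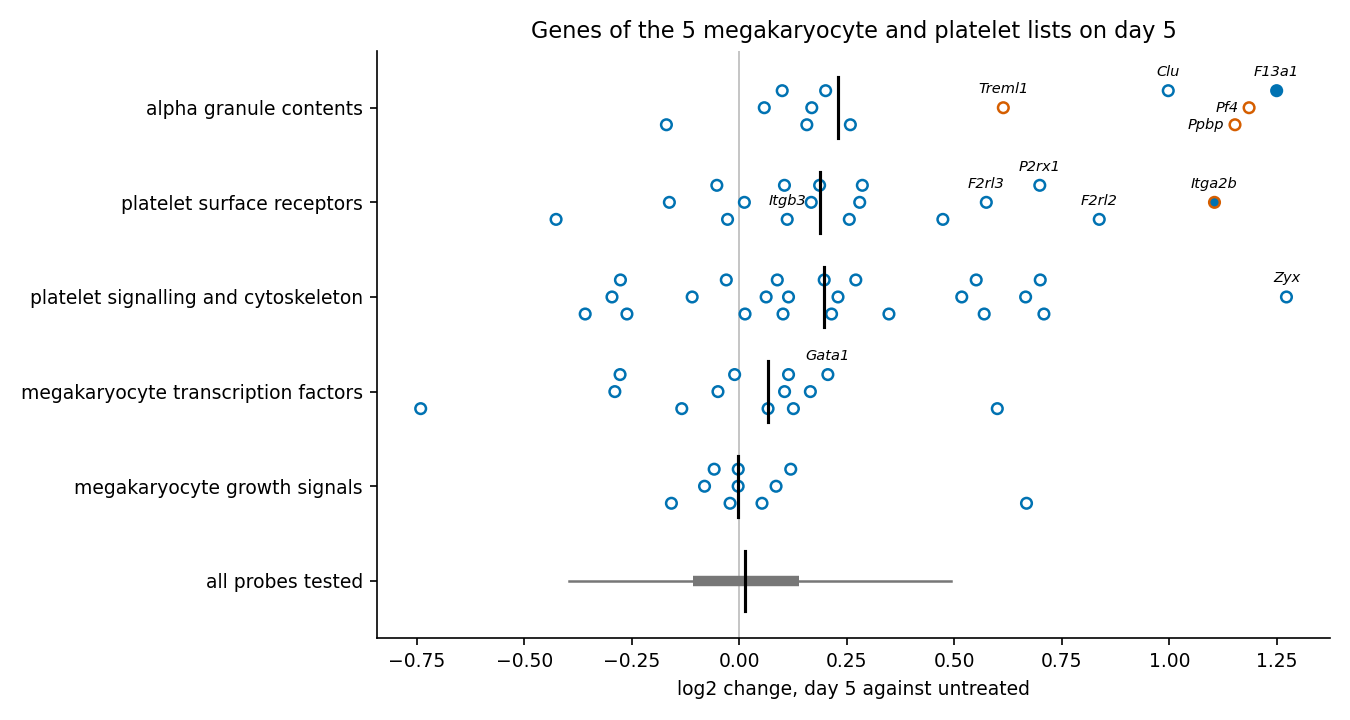
Log2 change on day 5 against untreated mice (horizontal axis) of every tested gene in 5 megakaryocyte and platelet lists; filled points passed the test, orange outlines mark the 4 genes described here, and black lines are medians. The lowest line of the plot gives all 8319 probes, with the median (0.01), the middle 50% as a thick bar and the middle 95% as a thin bar (-0.40 to 0.49).

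Among alpha granule contents, 1 of 12 tested genes passed as higher on day 5, F13a1, which encodes the A subunit of clotting factor XIII and is made by platelets and by monocytes. Its log2 ratio was -1.94, -2.02, -1.79, -1.40 and -1.91 on day 5 and -3.10, -3.05, -2.82, -3.14 and -3.20 in untreated mice, with no overlap. F13a1 rose 2.38-fold on day 5 (log2 1.25 ± 0.22, limma, adjusted p = 0.0396), after a fall by 0.85 on day 2 (adjusted p = 0.0209). The day 5 call was lost with quantile normalization, equal spread, a variance trend, technical array 2 alone, the replicate block and the 3 mice of low technical correlation left out, where 0 of the 71 genes passed, and the count stayed at 1 in 9 of 19 fits with 1 mouse left out. The day 2 means of the 4 genes described here were all above untreated. On day 2, 3 of the 12 passed as higher and 1, F13a1, as lower. Those that rose were Clu, encoding the chaperone clusterin (1.26 ± 0.37, adjusted p = 0.0378), Pdgfb, a platelet-derived growth factor chain (0.67 ± 0.17, adjusted p = 0.0138), and Pros1, the anticoagulant protein S (1.02 ± 0.31, adjusted p = 0.0440). On day 1 Clu also passed, at 1.50 ± 0.39 (adjusted p = 0.0447).

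Among platelet surface receptors, 1 of 17 passed on day 5, Itga2b itself, and 3 passed on day 2. The other two were P2rx1, the ATP-gated ion channel of platelets (0.71 ± 0.16, limma, adjusted p = 0.00582), and Itgb1, the integrin beta 1 chain (0.54 ± 0.13, adjusted p = 0.0130). On day 5 P2rx1 had a change of 0.70 ± 0.16 (adjusted p = 0.216). The thrombin receptor genes F2rl2 and F2rl3 had 0.84 ± 0.22 (adjusted p = 0.422) and 0.57 ± 0.25 (adjusted p = 0.923). Itgb3, whose product pairs with that of Itga2b in the fibrinogen receptor, had a change of 0.11 ± 0.13 on day 5 (adjusted p = 0.973) and 0.24 ± 0.14 on day 2 (adjusted p = 0.346). Its mean ratio was 0.01 ± 0.16 (SD, n = 5) on day 5 and -0.10 ± 0.18 (SD, n = 4) in untreated mice. The difference between the changes of Itga2b and Itgb3 was not tested.

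In the signalling and cytoskeleton list, 0 of 23 passed on day 5, and on day 2, 2 passed as higher and 1 as lower. Plek, the protein kinase C substrate pleckstrin, rose by 1.08 ± 0.23 on day 2 (limma, adjusted p = 0.00565) and Flna, the actin crosslinker filamin A, by 0.81 ± 0.18 (adjusted p = 0.00669). Stom, a membrane protein of red cells and platelets, fell by 1.02 ± 0.23 (adjusted p = 0.00625) and was higher again on day 5 than on day 2, by 0.99 ± 0.23 (adjusted p = 0.0110). Zyx, the adhesion protein zyxin, had the highest day 5 change of this list, 1.27 ± 0.36, without passing (adjusted p = 0.560).

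Of 13 transcription factors of megakaryocytes, 0 passed on day 5. Zfpm1, which encodes the GATA1 partner FOG1, fell by 1.29 ± 0.37 on day 2 (limma, adjusted p = 0.0344) and was higher on day 5 than on day 2, by 1.46 ± 0.37 (adjusted p = 0.0244). Cbfb, the partner of Runx1, rose by 0.62 ± 0.15 on day 1 (adjusted p = 0.0236). Gata1, Fli1 and Runx1 had day 5 changes of 0.21 ± 0.26, -0.05 ± 0.12 and -0.13 ± 0.24 (adjusted p = 0.974, 0.989 and 0.984). Of 10 growth signal genes 0 passed on day 5, and Stat3, a mediator of cytokine signals, rose by 0.81 ± 0.22 on day 2 (adjusted p = 0.0227).

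The defining markers give a limited check of the cell type. No probe was assigned to Vwf, Gp1ba, Gp6, Tubb1 or Thpo in the table used here, and the probes of Gp9, Gfi1b and Nfe2 had no value in any mouse. The probes of Gp5, Gp1bb and Selp had too few values to be tested. Clec1b, a podoplanin receptor of platelets, had a day 5 change of 0.28 ± 0.23 (limma, adjusted p = 0.937). Clec1b and Itgb3 were the surface receptor markers of this check with a test, and neither passed on day 5. F13a1, which monocytes also make, did pass.

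In the families of the 4 genes, 0 of 14 CXC chemokine and receptor genes passed on day 5. Cxcr6, a chemokine receptor of lymphocytes, rose by 0.77 ± 0.23 on day 2 (limma, adjusted p = 0.0406) and was lower on day 5 than on day 2 by a log2 change of -1.16 ± 0.23 (adjusted p = 0.00409). Of 8 TREM family genes and relatives 0 passed on day 5. Nfam1, an activating receptor of leukocytes in this list, rose by 0.78 ± 0.16 on day 2 (adjusted p = 0.00292). Cd177, a neutrophil surface protein, is in the list but is not a TREM receptor. It was higher on day 5 than on day 2 by 1.62 ± 0.29 (adjusted p = 0.00192). Of 10 integrin genes, Itga2b and Itgb1 passed on day 2 and Itga2b on day 5.

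The genes whose ratios followed the 4 genes most closely over mice, by Pearson's r among probes with 1 named gene and at least 15 mice, are given as a description. For Itga2b they were Ipo11 (0.76, 18 mice), Tha1 (0.74, 15 mice) and F2rl2 (0.74, 18 mice), then Gpc1 and Acad9. For Treml1 they were Map1lc3a (0.83), Gabarapl1 (0.82), Hoxd10 (0.77, 15 mice), F2rl3 (0.76) and P2rx1 (0.76). F2rl2, F2rl3 and P2rx1 are platelet surface receptor genes, and the share of such genes among all probes compared was not taken. Gabarapl1 and Map1lc3a each had another tested probe. Its day 5 change against untreated was -0.06 for Gabarapl1 and 0.17 for Map1lc3a, against 0.57 and 0.42 for the probes used here. For Ppbp they were Tha1 (0.83, 15 mice), Smim3 (0.81), Eps8, Aoc3 and Atg7, and for Pf4 they were Cd7 (0.80), Nme2, Timm23, Esd and Tm4sf1. The mean profile of the 4 genes was most like Tha1 (0.82, 15 mice), Smim3 (0.79), Cd7 (0.74), Col1a2 and Hs6st2. Group means were not removed here, so a change shared between conditions adds to r. All ratios of a mouse share its arrays and the marrow pool.

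Markers of other cells in the spleen moved over the same days. Of 13 red cell precursor genes, 7 passed as lower on day 1 and 10 on day 2 (1.39% and 5.00% of all probes), and 0 passed on day 5, when their median change was -0.11. Alas2, which starts heme synthesis in red cell precursors, fell by 3.94 ± 0.32 on day 2 (limma, adjusted p = 1.24e-07) and had a change of -0.45 ± 0.32 on day 5 (adjusted p = 0.923). Rhd and Kel, blood group genes, fell by 3.47 and 2.41 on day 2. The 4 platelet genes had means above untreated on all 3 days. Itga2b passed as higher on day 2, when 10 of the 13 red cell genes passed as lower. It also passed on day 5, when 0 red cell genes passed and only 6 of all probes tested did. Any relation between the platelet and red cell changes was not tested.

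Of 12 monocyte and macrophage genes, 1 passed as higher on day 1, 2 on day 2 and 0 on day 5, with medians of 0.63, 0.44 and 0.30. Siglec1, a macrophage receptor, rose by 1.24 ± 0.15 on day 2 (limma, adjusted p = 2.22e-05) and Mrc1, the mannose receptor, by 1.08 ± 0.31 (adjusted p = 0.0363). C1qa, a complement gene of macrophages, had the highest day 5 change of the list, 1.84 ± 0.48, without passing (adjusted p = 0.504). Of 9 basophil, mast cell and eosinophil genes Ccr3 passed as higher and Tpsb2 as lower on day 2. None of 8 neutrophil, 8 stem and progenitor, 5 T cell or 7 B cell genes passed against untreated on day 2 or day 5 in limma. Among these, Cd22 and Ms4a1 of B cells and S100a9 of neutrophils had an unadjusted p below 0.05 on one of these days.

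A score was taken for each mouse and list, as the median of the mouse's ratios after subtracting each probe's mean. For the 71 other megakaryocyte and platelet genes it ran from -0.15 to -0.06 in untreated mice, from -0.02 to 0.08 on day 1, from -0.06 to 0.25 on day 2 and from -0.07 to 0.16 on day 5. For monocyte and macrophage genes it ran from -0.51 to -0.02 in untreated mice, from 0.07 to 0.21 on day 1, from -0.18 to 0.32 on day 2 and from -0.19 to 0.16 on day 5. For red cell precursor genes it ran from 0.46 to 0.84 in untreated mice, from -0.95 to -0.02 on day 1, from -0.93 to -0.04 on day 2 and from 0.15 to 1.18 on day 5. The median score over mice for red cell precursor genes was 0.77 in untreated mice, -0.64 on day 1, -0.81 on day 2 and 0.44 on day 5. For monocyte and macrophage genes it was -0.35, 0.11, -0.04 and -0.06 over the same conditions. The means of the 4 platelet genes were highest on day 5. The part of the red cell or macrophage shifts in the ratios of the 4 genes was not tested.

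**Figure D5:**
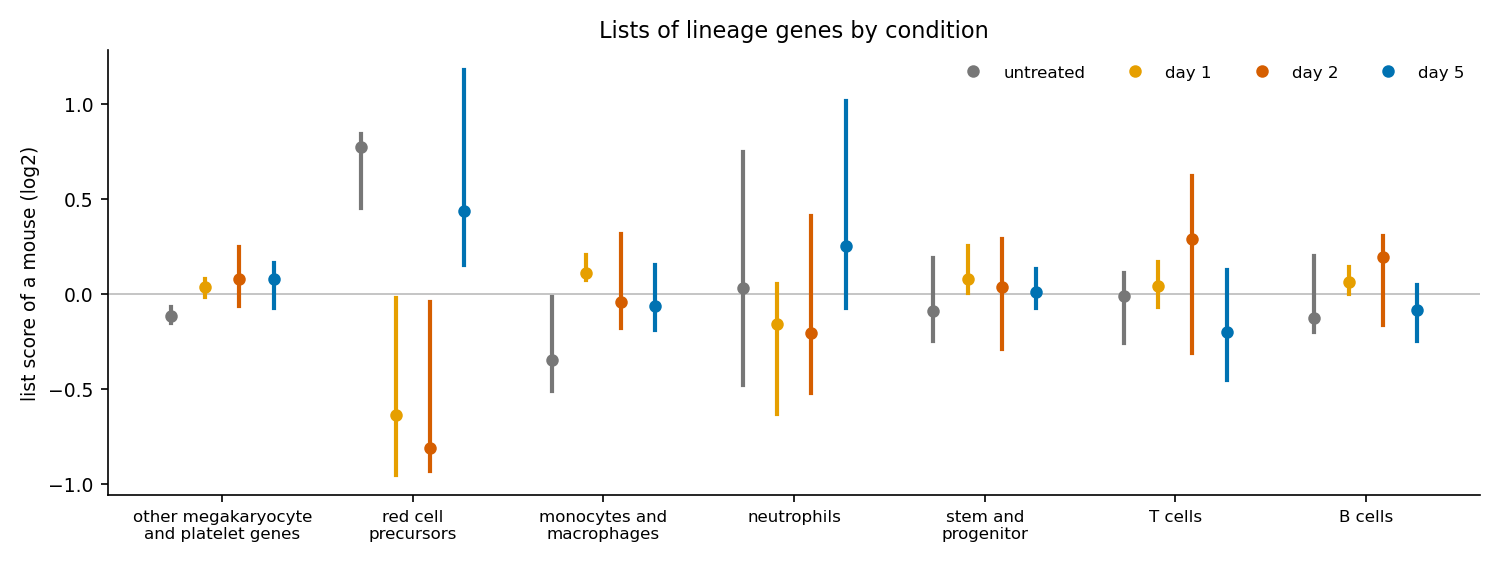
Score of 7 lineage gene lists (vertical axis, median of centred log2 ratios of a mouse) in untreated mice and on days 1, 2 and 5; points are group medians and lines run from the lowest to the highest mouse. Red cell precursor genes drop on days 1 and 2. On day 5 they run from 0.15 to 1.18 (median 0.44), and in untreated mice from 0.46 to 0.84 (median 0.77). The 71 other megakaryocyte and platelet genes shift by far less.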

How the data were processed

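Per the labels' protocols, the authors amplified total RNA of each spleen sample and of the marrow pool and labelled them with Cy5 and Cy3, with no dye swap. The deposited values are log ratios taken as log2 because no source used here states the base. They are bounded at a size of 6, and array medians lie between -0.0212 and 0.0132, so the values had been centred on each array. The sources used here do not state the background correction, spot filter, normalization or software, and 63.2% of the values are present. The 2 technical arrays of a mouse were averaged. Of 13443 probes, 10032 had 1 gene, 170 several and 3241 none, with 10028 symbols updated or kept by gene ID through RefSeq names. The 8319 probes measured in 3 or more mice of every group were fitted with limma 3.58.1 (lmFit and eBayes, prior degrees of freedom 5.52) in R 4.3.3. All 4 groups shared the spread, with two-sided p values adjusted over all probes tested by Benjamini-Hochberg. Precision is limited by the number of mice, with a median standard error of 0.174 for day 5 against untreated. Within-mouse differences of 2 genes were tested by exact permutation, and correlations, added after seeing the data, by 100000 permutations within groups.

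The members, the 15 gene lists (342 genes, 246 on the array) and the tests were chosen with earlier results of these data known. The rule for named genes took each list gene that passed on day 5 or day 2 or between them, the defining markers with a value, the 5 most alike genes of each member, and up to 3 genes of each cell type list with the smallest p. Genes named beyond this rule (Cbfb and Clu on day 1, F2rl2, F2rl3 and Zyx) were chosen after their values were seen. In lists each gene had 1 probe, the one with most values. Mouse numbers did not pair the groups: with group means removed, 27 same-numbered pairs had a mean correlation of -0.00472 (-0.249 to 0.325), against 0.0014 for 108 other pairs. On simulated data with 8319 probes and normal noise, the steps found 85 of 100 probes changed 2-fold on day 5 and 99 of 100 changed 4-fold, with 6 false calls. In the measured data only 6 probes passed on day 5, which makes the adjusted threshold stricter than in the simulation. The simulated shares therefore do not give the chance of finding a 2-fold change on day 5 here. Ppbp, at 2.22-fold, did not pass (limma, adjusted p = 0.348). Alternatives were median centring, quantile normalization, equal spread, each technical array alone, other filters on missing values, a variance trend, the groups compared alone, a replicate block, each mouse left out and the 3 mice of technical correlation below 0.7 left out. Python 3.11.15 with matplotlib 3.10.9 made the figures. A defining marker of the lists is not reported here.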

Additional observations from a re-analysis of the deposited data

How the results depend on the processing

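The day 5 change of Itga2b was above 0 in all 29 alternatives that gave it a value and passed in 8 of them. It was 1.05 (adjusted p = 0.0540) with technical array 1 alone, 1.21 (0.129) with array 2 alone, 1.11 (0.0613) with a variance trend, 1.11 (0.0959) with the 2 groups alone and 1.03 (0.421) without the 3 mice of low technical correlation. In these 5 fits, and where only probes with a value on all arrays were kept, which drops Itga2b and Treml1, the number of the 4 genes that passed on day 5 was 0 and not 1. It passed with median centring (1.10), quantile normalization (1.33), equal spread (1.19) and no filter (1.11). With the mouse number as a replicate block the change was 1.11 (adjusted p = 0.0943), so 0 of 4 passed. The block changed no other call among the 4 genes, and mouse numbers did not pair the groups. Leaving out 1 mouse at a time gave 0.98 to 1.18 for Itga2b and 0 to 1 of 4 genes passing on day 5.

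On day 2, 0 of 4 passed with quantile normalization, equal spread, values on all arrays or without the 3 mice, and 0 to 2 with 1 mouse left out. By the F-test 0 passed without the 3 mice, and 1 to 2 with 1 mouse left out, where it was 2 without untreated mouse 1, untreated mouse 2 or day 1 mouse 2. Treml1 passed on day 2 with array 2 alone (0.59, adjusted p = 0.0380), where Itga2b did not (0.75, adjusted p = 0.0936).

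Some small steps between treated days, none of which passed, changed sign. From quantile normalization, day 2 minus day 1 was -0.0237 for Pf4, -0.059 for Ppbp and -0.00228 for Treml1, and from equal spread it was -0.0293 for Pf4 and -0.0936 for Ppbp. With 1 mouse left out it ran from -0.165 (without day 2 mouse 5) to 0.399 for Pf4, which had -0.00914 without day 2 mouse 1. Without day 1 mouse 2 it was -0.124 for Ppbp (highest 0.252) and -0.0408 for Treml1 (highest 0.223). Day 5 minus day 2 for Treml1 was -0.082 with array 2 alone and ran from -0.0299 (without day 2 mouse 4) to 0.264, with -0.0127 without day 5 mouse 4. The rising order of all 4 means is therefore not fixed. Pf4, Ppbp and Treml1 passed on day 5 in no alternative, with differences of 1.00 to 1.58, 0.90 to 1.37 and 0.51 to 0.79. The count of all probes called on day 5 was 6, and 0 to 11 over the alternatives. On day 2 it was 691 (338 to 685). The cause of these shifts was not tested.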

Other observations

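Gp5, which encodes a platelet surface glycoprotein, had too few values to be tested, but the number of mice with a value differed between conditions. A value was listed in 0 of 5 untreated mice, 1 of 4 mice on day 1, 2 of 5 on day 2 and 4 of 5 on day 5. The 4 day 5 ratios were 0.05, 0.18, 0.64 and -0.31. Such a pattern, no value in untreated mice and a value in at least 4 day 5 mice, was seen in 46 of the 12360 probes with a value in any mouse (0.372%). Other platelet surface markers with few values did not follow it. Selp, which encodes P-selectin, had a value in 3 untreated mice, 2 on day 1, 3 on day 2 and 3 on day 5, and its mean ratio was -0.16 on day 5 and 0.26 in untreated mice. Gp1bb, which encodes a chain of a platelet von Willebrand factor receptor, had a value in 1 untreated mouse, 0 on day 1, 1 on day 2 and 0 on day 5. Array 1 held 9223, 7078, 9585 and 10202 values in the day 5 mice with a Gp5 value, and 7074 to 9037 in untreated mice. The counts of mice with a value were not adjusted for this. The sources used here do not state why a spot has no value, and these counts of mice were picked after they were seen.

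Besides Itga2b and F13a1, the probes that passed on day 5 against untreated were those of App, which encodes the amyloid precursor protein (0.71 ± 0.12, limma, adjusted p = 0.0352), and Thbd, which encodes the anticoagulant receptor thrombomodulin (0.66 ± 0.12, adjusted p = 0.0424). Probes of no named gene were the 2 that passed as lower. App and Thbd had already passed on day 2, by 1.33 ± 0.12 and 0.75 ± 0.12 (adjusted p = 3.25e-07 and 4.78e-04).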
